A study of Arabidopsis thaliana with 30 samples.

Results

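The step from 3 to 24 h after cutting was followed in hypocotyl explants of wild-type Arabidopsis thaliana of the ecotype Col-0. It rests on the 3 libraries taken at 24 h and the 3 taken at 3 h, chosen by their labels for genotype and time, 6 of the 30 libraries of the study. Dark-grown seedlings were 7 days old, their hypocotyls (the stem below the seed leaves) were cut with a scalpel, and about 50 explants were pooled per biological replicate. The remaining groups are hsfa1abd-2 mutant explants at 0, 0.5, 1, 3 and 24 h and wild-type explants at 0, 0.5 and 1 h, with 3 replicates each. The mutant has the same Col-0 background and is named for HSFA1A, HSFA1B and HSFA1D, transcription factors that switch on the heat shock genes. Every group is labelled as wounded, the 0 h explants included, and uncut seedlings were not analysed here. Between 24 and 3 h, time since cutting, age of the explant and time of day therefore cannot be told apart.

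Cutting a plant stem sets off fast changes in transcripts, many of them for transcription factors and for the jasmonate pathway, a hormone route of wound defence. Over the following day the tissue leaves this early state, and cells near a cut can re-enter division and form callus, vessels or roots. A comparison of 24 with 3 h asks what is given up and what is gained over that interval, with no 0 h library as its control.

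The deposited rows have no gene identifiers. Features are therefore given by row number or by group, no gene name or sequence is printed, and the tissue, its cell types and the genotype were not checked against marker genes. In whole explants, fewer cells of a type and less RNA per cell cannot be told apart. The 6 libraries held 3643380 to 4296509 counts and had counts for 20842 to 21296 features. In the whole study 1 library was shallow (wild type 0.5 h replicate 1, 578179 counts). Replicates of the step correlated at r = 0.976 to 0.981 in log2 CPM (counts scaled to a library size of 1000000) across the 18526 tested features, a 24 h and a 3 h library at 0.832 to 0.857. The median difference of a feature, without its sign, was 0.561 to 0.649 on the log2 scale over the 9 pairs of a 24 h and a 3 h library, and 0.189 to 0.221 over the 6 pairs of replicates. No pair across times was as alike as any pair of replicates.

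Over this step the wild type lowered and raised many features, and the large changes were mostly declines. The quasi-likelihood test of edgeR, at an adjusted p of 0.05 (Benjamini-Hochberg), called 10347 of 18526 tested features (55.9%), 4793 higher at 24 h (25.9%) and 5554 lower (30.0%). At least 2-fold, 2207 were higher (11.9%) and 3049 lower (16.5%), 28.4% of tested features in all. Declines made up 58.0% of the changes of at least 2-fold, 71.4% of those of at least 4-fold and 80.1% of those of at least 8-fold, where 124 features were higher and 500 lower. At 64-fold or more, 6 were higher and 47 lower, although folds of that size lean on groups near 0 counts. The balance of all calls depended on scaling. With libraries scaled by total counts instead of TMM (trimmed mean of M-values), the median log2 fold of all tested features was 0.05 in place of -0.05 and declines were 46.6% of all calls. They were then still 51.2% of 2-fold and 77.2% of 8-fold changes.

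**Figure D1:**
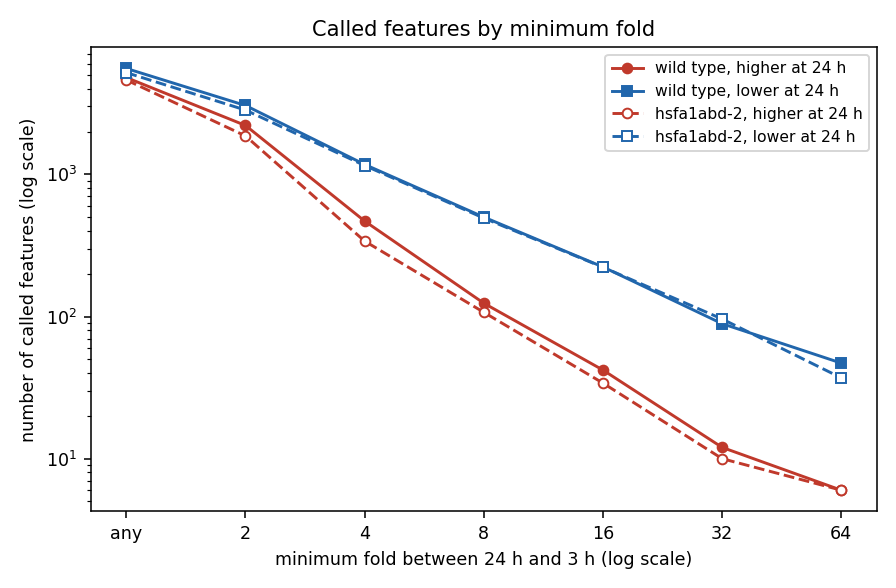
Number of called features (log axis) against the minimum fold between 24 and 3 h (log axis), higher (red circles) and lower (blue squares) at 24 h, in the wild type (filled, solid) and in hsfa1abd-2 (open, dashed). In the wild type the lines part with rising fold, with 124 higher and 500 lower features at 8-fold.

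Smaller numbers changed over the shorter steps before it. From 1 to 3 h the wild type had 1122 features at least 2-fold higher (6.06%) and 931 lower (5.03%), and from 0.5 to 1 h 909 higher (4.91%) and 655 lower (3.54%). From 0 to 0.5 h, 1728 of the 18526 tested features were at least 2-fold higher and 681 lower. Rises outnumbered declines in each of these steps, unlike from 3 to 24 h. These steps differ in length and neighbouring ones share libraries, so the counts stand side by side without a test. The steps to and from 0.5 h contain the shallow library.

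How often abundant features declined depended on how their level was set. Among the 171 tested features above 500 CPM on average over all 30 libraries, 56 (32.7%) were at least 2-fold lower at 24 h and 17 (9.94%) higher. Among the 2846 under 5 CPM, 19.4% were lower and 18.9% higher. That average weighs the 24 h libraries little, so a feature that fell at 24 h keeps a high mean and one that rose then keeps a low one. With level set as the mean of the wild-type 24 and 3 h values in log2 CPM, a choice made after seeing the data, 188 features lay above 500 CPM, of which 40 (21.3%) were lower and 37 (19.7%) higher. Under 5 CPM, 25.2% of 3374 were then lower and 15.9% higher. No lean of abundant features towards decline is therefore reported. CPM is not corrected for the length of a transcript.

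**Figure D2:**
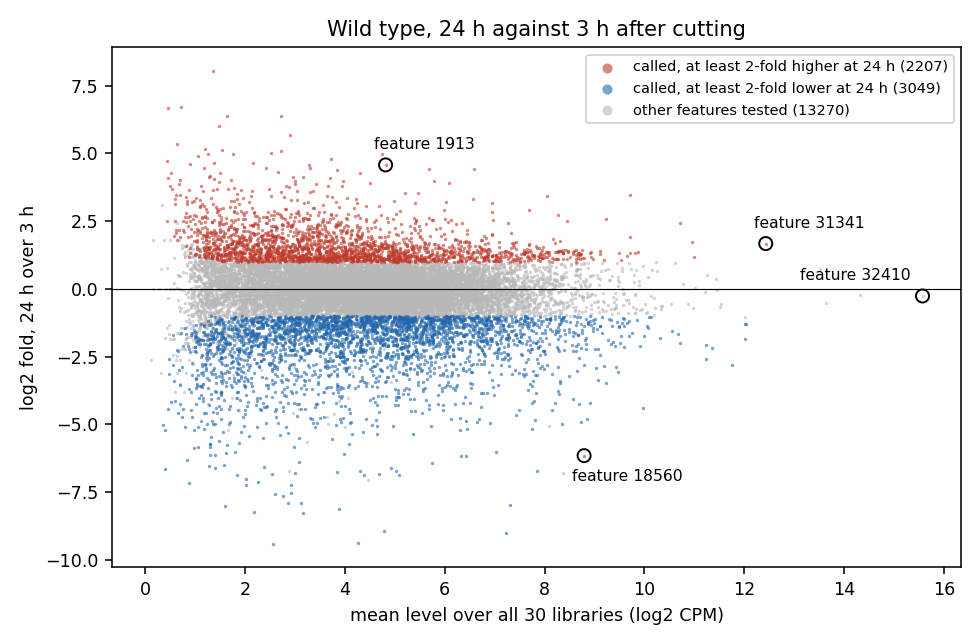
Log2 fold of 24 over 3 h in the wild type against the mean level over all 30 libraries (log2 CPM), each point 1 tested feature. The 2207 features at least 2-fold higher are red, the 3049 at least 2-fold lower are blue and the other 13270 grey; circles mark the 4 features described by number, and the blue points reach further from 0 than the red ones.

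Some of the most abundant features were exchanged between the times. Of the 100 most abundant features at 24 h, 51 were also among the 100 most abundant at 3 h. Within the 24 h set, 35 features were at least 2-fold higher and 5 lower at 24 h, and within the 3 h set 4 were higher and 49 lower. Each set was picked in libraries that also give its folds, so these counts only describe it. The 100 most abundant features of each library took 25.18, 24.50 and 25.35% of counts at 24 h, against 24.12, 23.84 and 23.77% at 3 h. The means were 25.0 ± 0.448% and 23.9 ± 0.187% (SD, n = 3 each), and the groups did not overlap. Thinned to an equal depth of 3643380 counts, the libraries had counts for 20840, 20801 and 20840 features at 24 h, against 21021, 21080 and 21161 at 3 h. Fewer features were thus seen at 24 h, again with no overlap. The two-sided exact permutation test of 3 against 3 gave p = 0.1 for both measures, the smallest it allows, and 0.1 after adjustment over the 2 tests. In hsfa1abd-2 the share of the 100 went the other way, with 22.67, 21.76 and 22.23% at 24 h, against 23.05, 23.02 and 22.84% at 3 h. Features at 5 CPM or more in every library of a group fell from 14140 at 3 h to 13943 at 24 h in the wild type. In the mutant they rose from 14022 to 14180. The count at equal depth was made in the wild type only.

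In their medians, though not in each feature, the features that declined by 24 h stood higher at 3 h than at 0 h. As a group, the 3049 features at least 2-fold lower had median wild-type levels of 11.2, 18.9, 21.5, 25.9 and 7.13 CPM at the 5 times in order. Over all tested features the medians stayed between 17.3 and 18.8 CPM. The values at 3 and 24 h chose this group and are a description, while those at 0, 0.5 and 1 h come from libraries that did not. They are still not free of the choice, since picking high 3 h levels favours lower levels at 0 h. Levels at 0.5 and 1 h may follow those at the near 3 h. The highest of the 5 group means was the 3 h one in 1303 (42.7%) of the 3049 and the 0 h one in 534 (17.5%). For the 500 features at least 8-fold lower, the medians ran 3.42, 8.77, 11.5, 16.4 and 1.301 CPM. Their level at 0 h was closer to the 24 h level than to the 3 h level in 314 (62.8%), against 44.1% of all tested features. Among the 3049, this held for 1699 (55.7%), and 786 (25.8%) stood higher at 0 h than at both 3 and 24 h, compared with 32.5% of all tested features. All tested features are no like background for any of these shares, since the levels that chose the features also set the distances. A chosen gap of at least 2-fold also favours levels between. Among the 2207 features at least 2-fold higher, the 0 h level was closer to the 24 h level in 695 (31.5%). The group took 8.45, 8.04 and 8.48% of all counts in the 24 h libraries, against 26.2, 25.6 and 27.4% in the 3 h libraries. At 0 h it had taken 18.7 ± 0.740% (SD, n = 3).

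In their medians, though not in each feature, the features that were gained stood lower at 3 h than at 0 h. The 2207 features at least 2-fold higher at 24 h had medians of 10.7, 9.21, 8.30, 7.38 and 22.2 CPM at 0, 0.5, 1, 3 and 24 h, of which those at 3 and 24 h chose the group. Picking low 3 h levels favours higher levels at 0 h, so the fall of these medians to 3 h is not free of the choice. At 0 h, 691 (31.3%) stood below both their 3 h and their 24 h level, against 34.5% of all tested features, and 162 (7.34%) above both, against 32.5%. Between the levels lay 1354 (61.4%), against 32.9%. The choice of a gap of at least 2-fold favours levels between, so all tested features are no like background for these shares. Their highest group mean of the 5 times was the 24 h one in 1990 (90.2%), which the choice of the group at 24 and 3 h largely sets. Their share of counts was 20.7, 21.5 and 21.2% at 24 h, against 7.09, 7.32 and 6.60% at 3 h, and 8.78 ± 0.756% at 0 h (SD, n = 3). The tested features in neither group took 70.3 ± 0.283% of counts at 24 h and 66.4 ± 0.522% at 3 h (SD, n = 3 each).

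**Figure D3:**
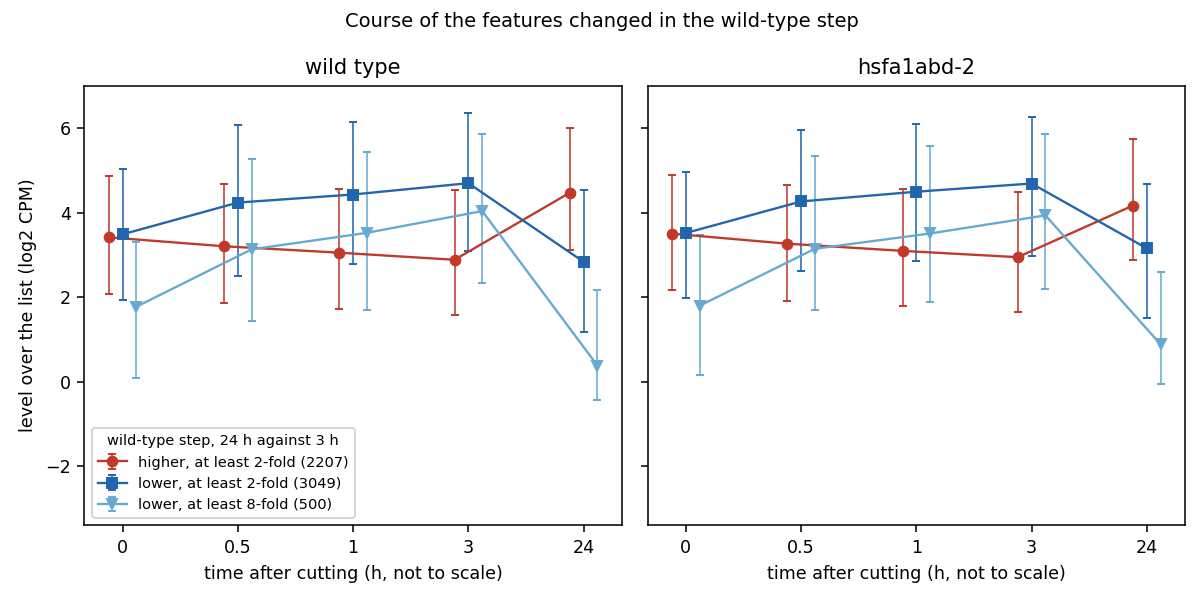
Median level (log2 CPM, bars from the 25th to the 75th percentile over features) at 0, 0.5, 1, 3 and 24 h of features chosen in the wild-type step, in wild type (left) and hsfa1abd-2 (right). The lower groups climb to 3 h and drop at 24 h in both genotypes, and the higher group moves the other way. Choosing the groups at 3 and 24 h in the wild type favours this shape.

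Few features were switched on or off outright. Near 0 was set as at most 3 counts summed over the 3 libraries of a time, which equals 0.266 CPM at 24 h and 0.273 CPM at 3 h, and present as at least 5 CPM in each library. By this rule 5 features were present at 24 h and near 0 at 3 h, and 33 were near 0 at 24 h and present at 3 h. The 33 lost features reached 5.73 to 66.3 CPM at 3 h with a median of 9.09 CPM. Of these, 10 had no count at all at 24 h and were at least 24.6-fold lower, with a median bound of 38.3-fold. Of the same 33, 15 had also been near 0 at 0 h and 7 present, while 19 were present at 1 h. In hsfa1abd-2, whose libraries did not choose them, 21 were present at 3 h and none was near 0 there, while 15 were near 0 at 24 h and none was present. The 5 gained features stood at 6.73 to 25.2 CPM at 24 h, and in the mutant 1 of them met the 5 CPM limit at 24 h. These counts turn on the rule. With a library left out, the same limits apply to fewer libraries, so a count can then only stay or rise. Of the lost features there were 53 without wild type 24 h replicate 2 and 55 without wild type 24 h replicate 3, and of the gained ones 12, 9 and 12 without wild type 3 h replicates 1, 2 and 3.

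The hsfa1abd-2 mutant, read in its own 6 libraries, made most of the same step. Of the 3049 features at least 2-fold lower in the wild type, 2436 (79.9%) were called lower in the mutant and 19 called higher, where 28.0% of all tested features were called lower and 24.9% higher. Of the 2207 higher ones, 1899 (86.0%) were called higher and 2 lower. The mutant had 1862 features of its own at least 2-fold higher (10.1%) and 2831 lower (15.3%). The 2-fold lists shared 2149 declines, 70.5% of the wild-type list and 75.9% of the mutant list, and 1395 rises, 63.2% and 74.9%. Across all 18526 tested features the steps correlated at r = 0.854, which describes the profiles and no more, since features are not independent. Group medians in the mutant followed the wild-type course, with 11.4, 19.2, 22.5, 25.8 and 8.90 CPM at the 5 times for the wild-type declines. For the wild-type rises they were 11.3, 9.61, 8.54, 7.70 and 18.0 CPM. The mutant 3 h replicates differed among themselves more than the wild-type ones, with chi-square values per degree of freedom of 9.86 and 11.9 for the pairs with replicate 2 and 7.22 for the other, against 2.47 to 4.24 within the wild-type groups. Without replicate 2, 77.5% of the declines and 81.9% of the rises were called in the mutant.

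**Figure D4:**
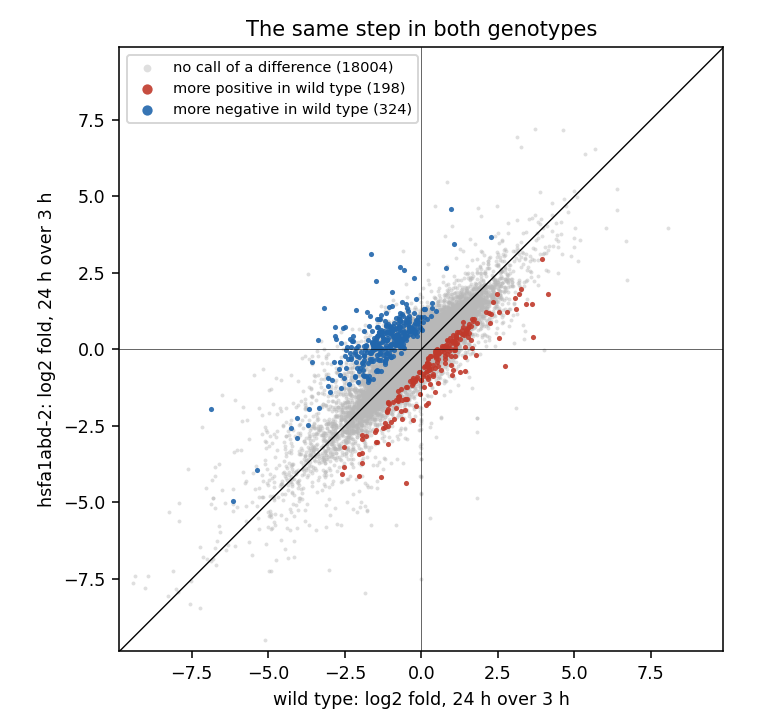
Log2 fold of 24 over 3 h in the wild type (x axis) and in hsfa1abd-2 (y axis), each point 1 of 18526 tested features; the diagonal marks equal steps. Red marks the 198 features whose step was called more positive in the wild type and blue the 324 called more negative, many of which lie at a negative wild-type and a positive mutant value.

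The size of the step was also compared between the genotypes. Over the wild-type list of rises the median log2 step was 1.42 in wild-type and 1.17 in mutant explants, and the mutant had the smaller change in 1802 of 2207 (81.6%), where it had the smaller change in 54.1% of all tested features. Choosing a list in 1 genotype favours the larger change there. Over the mutant's own 1862 rises the median log2 step was 1.41 in wild-type and 1.34 in mutant explants. There the choice favours the larger change in the mutant, and the wild type was the smaller in 46.4%. The share over all tested features, which were not chosen by their step, is no like baseline for either list. Among declines the shares were alike, since the mutant was the smaller in 62.4% of wild-type declines and the wild type the smaller in 63.7% of mutant declines. Without hsfa1abd-2 3 h replicate 3 these shares were 68.5% and 55.7%, and without replicate 2 57.7% and 67.5%. The share for wild-type rises was 77.6% to 83.1%, and that for mutant rises 43.6% to 49.7%, under other scalings and without any 1 of the 12 libraries. These shares describe the lists and carry no test.

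Tested directly for each feature, few steps were called different between the genotypes. Levels set side by side at a single time, also by edgeR, differed in 3863 of 18526 tested features at 24 h. At 3 h they differed in 370 of the same 18526. The mutant replicates differed more among themselves at 3 h, with chi-square values per degree of freedom of 7.22 to 11.9, than at 24 h, with 1.75 to 2.43. The smaller count at 3 h therefore does not show that the genotypes were alike then. A step that was not called different is not shown to be equal. The difference in step, wild type minus mutant, was called by edgeR in 522 features (2.82%), more positive in the wild type in 198 (1.07%) and more negative in 324 (1.75%). Of the 324, 262 were called lower at 24 h in wild-type explants and 41 in mutant ones, while 5 and 117 were called higher. Opposite calls in the genotypes numbered 55. At 24 h these 324 had median levels of 19.2 CPM in wild-type and 37.8 CPM in mutant explants, and at 3 h of 37.6 CPM in wild-type and 32.9 CPM in mutant explants. For the 198, wild-type and mutant medians were 59.4 and 41.1 CPM at 24 h, and 45.3 and 57.3 CPM at 3 h. The test chose these features in the same libraries, so their levels are a description. Both counts depend on single libraries. Left out, they gave 95 more positive and 126 more negative for wild type 24 h replicate 2, 105 and 234 for wild type 3 h replicate 1, and 122 and 173 for wild type 3 h replicate 2. For hsfa1abd-2 they gave 97 and 190 without 24 h replicate 2, 76 and 161 without 24 h replicate 3, 121 and 182 without 3 h replicate 1, 347 and 816 without 3 h replicate 2, and 183 and 187 without 3 h replicate 3.

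Single features show the extremes of the step. Of those with at least 5 CPM at both times, feature 18560 had the largest decline. It had 13.7, 11.4 and 7.63 CPM in the wild type at 24 h, against 712, 734 and 906 CPM at 3 h. The log2 fold was -6.16 (approximate SE 0.203, edgeR adjusted p = 5.65e-21), 71.4-fold lower. Earlier it had climbed, with means of 125 ± 22.4, 395 ± 41.5 and 850 ± 37.3 CPM (SD, n = 3 each) at 0, 0.5 and 1 h, so at 24 h it was below its level at 0 h in every library. In hsfa1abd-2 it had 24.8, 22.4 and 24.0 CPM at 24 h, against 804, 675 and 725 CPM at 3 h, a log2 fold of -4.95 (SE 0.186, adjusted p = 1.8e-19 by edgeR). The wild-type step was the more negative by -1.21 (SE 0.254, adjusted p = 0.00773 by edgeR). At 24 h the genotypes did not overlap, and at 3 h they did.

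Feature 1913 had the largest rise by the same rule. It stood at 140, 140 and 165 CPM in the wild type at 24 h, against 4.71, 5.03 and 8.83 CPM at 3 h. All 24 h libraries were above all others of the wild type, in which it had 3.42 to 16.9 CPM. The log2 fold was 4.58 (SE 0.295, adjusted p = 9.43e-13 by edgeR), 23.9-fold higher. In the mutant it had 91.1, 41.4 and 51.0 CPM at 24 h, against 6.58, 3.03 and 3.58 CPM at 3 h, a log2 fold of 3.78 (SE 0.324, adjusted p = 2.16e-10 by edgeR). The difference in step of 0.80 (SE 0.498) was not called (adjusted p = 0.463 by edgeR), which does not show equal steps.

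The largest changes in CPM fell on features that were abundant throughout, which a choice by change in CPM favours. Feature 31341, ranked 4 at 24 h and 5 at 3 h, had 13900.2, 14027 and 13416 CPM in the wild type at 24 h, against 4091, 4038 and 4843 CPM at 3 h. The log2 fold was 1.67 (SE 0.301, adjusted p = 5.38e-05 by edgeR). Its replicates were uneven at 0.5 h, with 3635, 9478 and 5092 CPM. In the mutant it had 9514, 8166 and 7607 CPM at 24 h, against 5656, 2900.1 and 3638 CPM at 3 h, a log2 fold of 1.05 (SE 0.296, adjusted p = 0.0047 by edgeR). The difference in step was 0.62 (SE 0.415, adjusted p = 0.502 by edgeR).

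Feature 32410 was the most abundant feature at both times. It had 47369.8, 45080.1 and 52496 CPM in the wild type at 24 h, against 57702, 57809.6 and 58378 CPM at 3 h. The log2 fold was -0.26 (SE 0.0996, adjusted p = 0.0254 by edgeR). This small decline was not called without wild type 24 h replicate 2 (adjusted p = 0.131), without wild type 3 h replicate 1, 2 or 3 (0.0525, 0.0515 and 0.0586), with the 6 libraries alone (0.0563) or scaled by total counts (0.176). In the mutant it had 45143, 44460.4 and 45052 CPM at 24 h, against 57354, 56602 and 53624 CPM at 3 h, a log2 fold of -0.32 (SE 0.0997, adjusted p = 0.00835 by edgeR). Its difference in step was 0.05 (SE 0.141, adjusted p = 0.909 by edgeR). From 0 h it had climbed by steps to 3 h in both genotypes, with 0 h means of 41739 ± 966 CPM for wild-type and 40168 ± 1553 CPM for mutant explants (SD, n = 3 each).

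**Figure D5:**
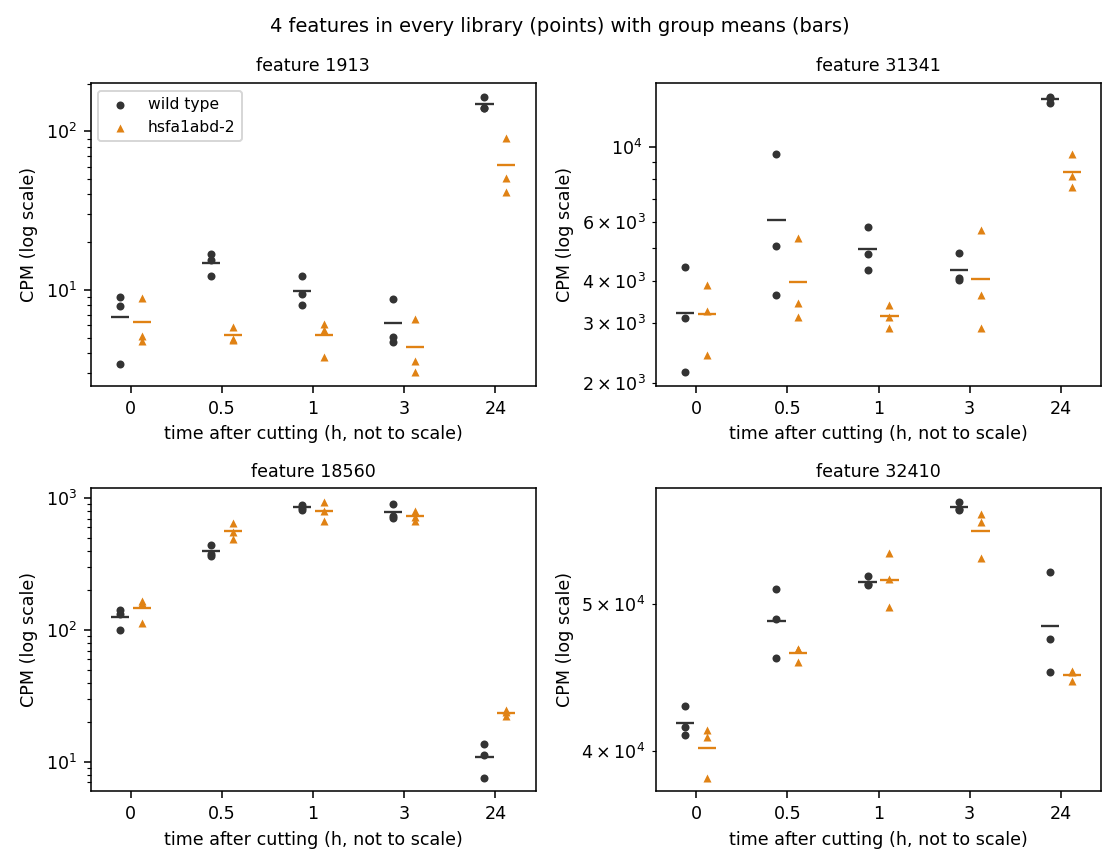
CPM (log axis) of the 4 described features in every library at 0, 0.5, 1, 3 and 24 h, wild type as dark circles left of hsfa1abd-2 as orange triangles, with group means as bars. Features 1913 and 31341 are highest at 24 h in both genotypes, and feature 18560 drops at 24 h to 7.63 to 13.7 CPM in the wild type.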

How the data were processed

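Messenger RNA of hypocotyl explants was sequenced with a stranded Kapa kit, per the labels' protocols. The submitters' processing notes name fastp, STAR and the TAIR10 build. How reads were assigned to rows, with which annotation and strand setting, is not given in the sources used here. Without them, reads of near-identical, overlapping or antisense genes may be split or merged. The authors deposited raw counts, whole numbers per row and library, not normalized. Of 36635 rows, 10278 had no count in any library.

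edgeR 4.0.16 in R 4.3.3 (limma 3.58.1) fitted all 30 libraries in 1 quasi-likelihood model of 10 groups, so that each contrast shares 1 estimate of the spread, after TMM scaling and filterByExpr (minimum count 10, minimum total 15, 2.78 CPM at the median depth). This left 18526 features, which hold 99.8% of counts. The biological coefficient of variation was 13.1%. Benjamini-Hochberg adjustment was made within a contrast, with a threshold of 0.05. CPM values use TMM-scaled totals, and group medians use log2 CPM with a prior count of 2. Each SE of a fold is approximate: the absolute log2 fold over the root of its F statistic. Bounds and floors use 3 counts and cover counting error only. Alternatives were DESeq2 1.42.0, other scalings and filters, fewer libraries and a replicate block.

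The 4 features given by number were, in each direction, the called feature with groups that do not overlap and the largest fold at 5 CPM or more in both groups, and the one with the largest change in CPM. Gene lists could not be applied to rows without identifiers. The comparison, its lists and tests were chosen with earlier results of these data known. The labels call the replicates biological. All replicate pairs of the step differed by more than sampling noise (chi-square of 2.47 to 4.24 per degree of freedom).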

Additional observations from a re-analysis of the deposited data

Results flagged for a closer look

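Steps that differed between the genotypes by a direct test are listed here. The step from 3 to 24 h was called more positive in the wild type than in hsfa1abd-2 for 198 features and more negative for 324, by edgeR's quasi-likelihood test of the difference with Benjamini-Hochberg adjustment over 18526 features. Among the features given by number, feature 18560 differed, with a step more negative in the wild type by -1.21 on the log2 scale (adjusted p = 0.00773 by edgeR, 0.00167 to 0.0335 over 18 alternatives). Its 3 wild-type libraries at 24 h, at 7.63 to 13.7 CPM, were all below the 3 mutant ones, at 22.4 to 24.8 CPM. Groups of 3 libraries are too small for a formal test of single outlying samples. With 1 of the 12 libraries left out, the 198 features became 76 to 347 and the 324 became 126 to 816.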

How the results depend on the processing

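Of 268 values recomputed under an alternative, 237 kept their direction and side of the threshold or, for counts, stayed within 1.5 times. No log2 fold or difference among them changed sign, and a count of features cannot. The median log2 fold of all tested features in the wild-type step, not among these values, did change sign. It was -0.0537 in the main fit, 0.0493 with libraries scaled by total counts and 0.0153 with the compared libraries alone. In the wild-type step the counts of features ranged over 4056 to 5506 higher and 4800 to 5879 lower in 13 alternatives, and at least 2-fold over 2006 to 2579 and 2571 to 3407. Fitted with their 6 libraries alone, declines were 50.0% of all calls and 53.5% of those of at least 2-fold. Of all declines called with TMM, 4800 of 5554 were also called with total counts as the scale, which was chosen after seeing the data. For the difference in step, the more positive features numbered 318 in the 12 compared libraries alone and 326 by DESeq2, and leaving out 1 library gave 76 to 347 more positive and 126 to 816 more negative features. Features gained from near 0 numbered 25 at a limit of 2 CPM, 1 at 0 counts and 5 to 12 with a library left out, and those lost 93, 10 and 36 to 55. The lower limit and a left-out library can only keep or raise these counts, and the limit of 0 counts can only keep or lower them. Of the 6 single-feature calls lost, each was that of feature 32410.

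Equal replicate numbers did not deviate together, with correlations of -0.0619 to 0.0331 over 6 pairs. With a replicate block, 4771 features were higher and 5520 lower in the wild-type step, and 190 and 313 differed in step between genotypes. The cause of the shifts with single libraries was not tested. Depth limits the rarest features, where 3 counts in a group of 3 equal about 0.27 CPM.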

Other observations

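At 24 h the wild type was about as far from its 0 h state as from its 3 h state. The median difference of a feature without its sign was 0.558 to 0.660 on the log2 scale between 24 and 0 h libraries and 0.561 to 0.649 between 24 and 3 h libraries, over 9 pairs each, and 0.474 to 0.540 between 3 and 0 h. The comparisons share libraries and carry no test. Of the 100 most abundant features at 24 h in the mutant, 50 were also among its 100 most abundant at 3 h.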
